A study of Mus musculus with 21 samples.

Results

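This account follows 58 genes of the cell cycle and of DNA replication through 21 RNA sequencing libraries of CD11b+ peritoneal macrophages. The genes were chosen by name. Their levels are in TPM (each transcript's length-corrected share of its library, scaled to a library total of 1000000), summed over the transcripts of a gene, and they are 58 of the 23545 genes summed in this way. By role, 13 load or unwind replication origins, 7 make DNA or its building blocks, 5 act in chromatin assembly or on S-phase chromatin, 8 are G1 cyclins and their kinases, 4 are E2F factors, 18 act in mitosis and 3 inhibit cyclin-dependent kinases. The first 5 of these roles (37 genes) are called the replication and G1/S genes below.

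The macrophages came from unelicited C57BL/6 mice (n = 10 in the labels, which do not tie a library to an animal) of 3 genotype labels. Wild type has 9 libraries, and Lum-/- (lumican knockout) and Bgn-/- (biglycan knockout) have 6 each. Cells received no protein, or recombinant lumican or biglycan at 10 µg/mL for 1 h, and then no stimulus, LPS at 100 ng/mL or CpG DNA at 1 µM for 6 h. LPS is a bacterial ligand of the receptor TLR4, and CpG DNA is a ligand of TLR9. All 3 protein conditions were used in wild type. The Lum-/- label lacks biglycan and the Bgn-/- label lacks lumican, and every genotype and protein combination was run with no stimulus, LPS and CpG. For protein without a stimulus, dose and time are not in the labels. Each combination has 1 library. The repeats behind a p-value are therefore libraries of other genotypes or proteins in the stimulus comparisons, of other treatments in the genotype comparisons and of other genotypes in the protein comparisons. Such p-values measure the spread between these libraries, and a genotype cannot be told apart from its cell preparation.

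Most resident macrophages sit outside the cell cycle. On the way from G1 into S phase, D-type cyclins with Cdk4 and Cdk6, and later E-type cyclins with Cdk2, release the E2F factors from the retinoblastoma protein. E2F target genes then supply the MCM helicase, its loaders, nucleotides and polymerases. The mitotic genes follow later, under B-Myb, FoxM1 and the MuvB complex, and the inhibitors p21, p27 and p18 hold the kinases back. Macrophages can also change single genes of this set, such as p21, without dividing.

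The libraries held an estimated 13000000 to 21140000 reads, except for 2 shallow ones with 2400000 and 2430000 reads, from cells labelled Lum-/- without treatment and from cells labelled Bgn-/- given biglycan and no stimulus. Those 2 libraries differed from each other by less than sampling noise (noise ratio 0.194 over 527 genes, against 2.01 or more in the other 209 pairs) although their labels name different genotypes and treatments, so they were left out of the tests. The untreated wild-type library stood apart from the rest of wild type in its summed mast cell markers, at 6.06 TPM against 107 to 221 TPM in the other 8 wild-type libraries, beside 10.0 and 11.9 TPM in the fitted unstimulated libraries of the Bgn-/- and Lum-/- labels. Lum, the gene targeted in one genotype, was at 12.0 to 14.1 TPM in the LPS-treated libraries labelled Lum-/- and at 0.718 to 1.4 TPM in those of wild type. Bgn was at 3.03 and 3.49 TPM in the CpG-treated libraries labelled Bgn-/- and at 0.542 to 1.52 TPM in those of wild type. Over the fitted libraries, Bgn was at 0.0 to 0.263 TPM in the Lum-/- label and 0.327 to 1.52 TPM in wild type, and Lum was at 0.0 to 0.134 TPM in the Bgn-/- label and 0.0 to 1.4 TPM in wild type. Each targeted gene was thus present under its own knockout label and low under the other one, so both go against the labels. The values have the pattern of exchanged labels, which was not tested. Every result for Lum-/- or Bgn-/- below therefore belongs to the libraries so labelled, and which gene their mice lacked is not settled by these data. The macrophage marker Adgre1 (F4/80) was at 542 to 949 TPM and the CD11b gene Itgam at 287 to 596 TPM over the 19 libraries.

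RefSeq promoter windows of 300 bases (250 before to 50 after the start, build GRCm38.p6) were available for 47 of the 58 genes. They are shown because most tested genes of the replication and mitotic roles rose with CpG. Both strands were searched for the E2F octamers TTTCGCGC, TTTGGCGC, TTTCCCGC and TTTGCCGC, for TTTGAA or TTTAAA, the core of the CHR (the element bound by the MuvB complex), and for CCAAT, the box bound by NF-Y. An E2F octamer was present in 6 of 9 licensing and helicase promoters, 1 of 7 DNA synthesis promoters, 2 of 5 chromatin promoters and 1 of 14 mitotic promoters. Of all 27025 promoters of that length, 2.32% hold one. A CHR core was present in 13 of 14 mitotic promoters and 3 of 9 licensing promoters, against 27.8% of all promoters. A CCAAT box was present in 13 of 14 mitotic and 7 of 9 licensing promoters, against 37.9% of all promoters. A match is a description of the letters and not evidence of binding. Capitals mark the matches in the 4 windows below, which show 2 replication genes that rose strongly with CpG (Mcm5 and Cdca7), and a pair of mitotic genes that differed under LPS (Cdk1 and Mki67). In Mcm5 the matches to TTTCGCGC and, on the opposite strand, TTTGGCGC overlap. The windows lie at chr8:75109259-75109558 (+) for Mcm5, chr2:72475969-72476268 (+) for Cdca7, chr10:69352863-69353162 (-) for Cdk1 and chr7:135716330-135716629 (-) for Mki67, each printed 5′ to 3′ on its own gene's strand.
Mcm5: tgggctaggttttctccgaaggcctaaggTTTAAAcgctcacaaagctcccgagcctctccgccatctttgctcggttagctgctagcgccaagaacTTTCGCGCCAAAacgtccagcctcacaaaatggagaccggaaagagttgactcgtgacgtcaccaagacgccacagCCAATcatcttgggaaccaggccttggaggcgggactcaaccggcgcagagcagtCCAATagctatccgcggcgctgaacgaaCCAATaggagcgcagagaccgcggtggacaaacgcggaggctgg
Cdca7: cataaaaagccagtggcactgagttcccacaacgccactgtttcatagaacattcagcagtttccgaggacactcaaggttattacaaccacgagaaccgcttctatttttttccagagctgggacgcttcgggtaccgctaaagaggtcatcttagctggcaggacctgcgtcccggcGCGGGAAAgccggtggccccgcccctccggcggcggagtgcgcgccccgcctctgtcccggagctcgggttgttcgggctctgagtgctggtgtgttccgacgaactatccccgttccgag
Cdk1: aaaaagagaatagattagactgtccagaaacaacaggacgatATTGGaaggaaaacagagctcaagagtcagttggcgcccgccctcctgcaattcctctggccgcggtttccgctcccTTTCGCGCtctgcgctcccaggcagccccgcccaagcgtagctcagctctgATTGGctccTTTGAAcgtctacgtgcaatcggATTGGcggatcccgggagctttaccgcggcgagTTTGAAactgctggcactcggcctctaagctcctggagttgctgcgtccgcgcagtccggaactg
Mki67: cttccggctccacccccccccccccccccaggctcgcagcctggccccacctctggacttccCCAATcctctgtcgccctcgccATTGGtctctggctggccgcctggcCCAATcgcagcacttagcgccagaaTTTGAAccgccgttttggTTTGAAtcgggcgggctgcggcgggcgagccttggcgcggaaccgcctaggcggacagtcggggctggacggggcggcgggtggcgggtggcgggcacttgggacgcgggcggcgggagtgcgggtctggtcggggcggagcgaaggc
The Mcm5 and Cdk1 windows hold an E2F octamer, a CHR core and CCAAT boxes. The Cdca7 window holds 1 of the 4 E2F octamers and neither other motif, and the Mki67 window holds CHR cores and CCAAT boxes and none of the 4 octamers. An octamer is not general among genes that rose strongly with CpG. The windows of Uhrf1, Rrm2, Mcm2 and Tyms, which rose too and are not printed, hold none of them.

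**Figure D1:**
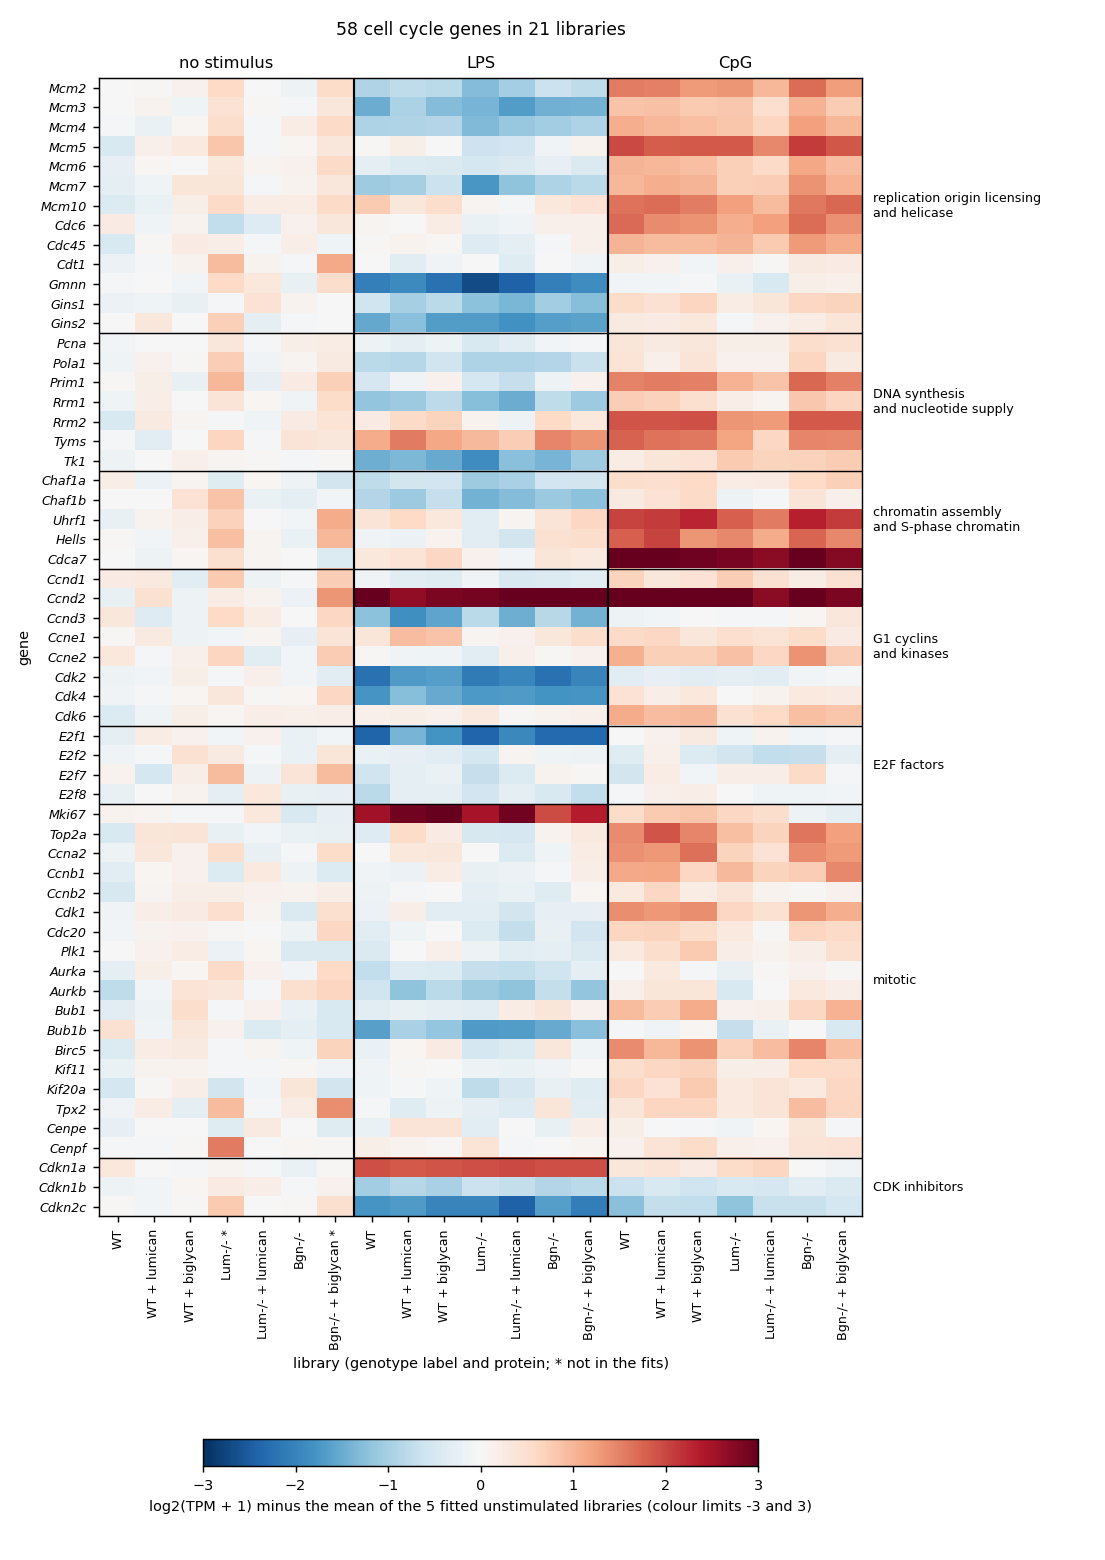
Level of each of the 58 genes (rows, grouped by role) in each of the 21 libraries (columns, by stimulus, genotype label and protein), as log2(TPM + 1) minus the mean of the 5 fitted unstimulated libraries; asterisks mark the 2 libraries left out of the tests. With CpG most replication rows are above the unstimulated mean, with LPS most are at or below it, and Ccnd2, Mki67 and Cdkn1a stand above it under LPS.

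With CpG, most of the replication genes and most of the mitotic genes were higher than without a stimulus. Of the 53 members with a mean of at least 1 TPM, 39 rose and 2 fell (limma on log2(TPM + 1), adjusted p under 0.05 over 11673 genes), where 15.2% of all genes tested rose and 19.9% fell. The median difference of the 53 was 0.55 on the log2 scale, against -0.04 over all genes tested. A filter on the mean favours genes that are high in 1 condition. With no filter, 40 of all 58 members rose and 2 fell. After median-of-ratios scaling, which sets the typical gene equal between libraries, 37 of 51 tested members rose and 2 fell, against 17.4% and 17.5% of all genes. Of all 58 members, 29 were higher and 2 lower with CpG without overlap between the CpG and the fitted unstimulated libraries. Of all genes tested, 7.1% were higher and 9.79% lower in that way. The 29 include Kif11 and Cenpf, which were not tested. With the 2 shallow libraries included, 33 rose and 3 fell, and without all wild-type libraries 22 rose and 1 fell.

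Under LPS the members split, and the reading depends on the scale. On deposited TPM, 8 rose and 25 fell, where 14.5% of all genes rose and 72.2% fell and the median difference over all genes was -0.71 on the log2 scale. After median-of-ratios scaling, 23 rose and 18 fell of 51, against 39.2% and 39.5% of all genes, so neither share stood far from the background. The members called in 1 direction on both scales were 8 higher (Rrm2, Tyms, Uhrf1, Cdca7, Ccnd2, Ccne1, Mki67 and Cdkn1a) and 18 lower. Mcm6 and Pcna were called lower on deposited TPM and higher after scaling. The LPS libraries did not overlap the fitted unstimulated ones for 4 higher and 21 lower members on deposited TPM, against 10.3% and 62% of all genes. The LPS and CpG comparisons share their 5 unstimulated libraries, so their values are set side by side and no correlation between them was used.

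LPS was also compared directly with CpG in 7 pairs of libraries matched for genotype and protein, which include none of the unstimulated libraries. On deposited TPM, 2 members were higher with LPS (Mki67 and Cdkn1a) and 47 were lower, against 12.4% and 75.7% of all genes. After scaling, 9 were higher and 37 of 51 lower, against 38% and 40.3% of all genes. Mki67 and Cdkn1a were higher on both scales, 37 members were lower on both, and Cdt1, Pcna and Cdkn1b were lower on deposited TPM and higher after scaling. With all 21 libraries the Cdt1 difference on deposited TPM was -0.26 (limma adjusted p = 0.106). On deposited TPM the libraries of both stimuli did not overlap for 2 higher and 43 lower members, against 8.1% and 62.4% of all genes tested. The 43 include Ccnd1 and Kif11, which were not tested. In bulk RNA, fewer cells of a type and less RNA per cell cannot be told apart.

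**Figure D2:**
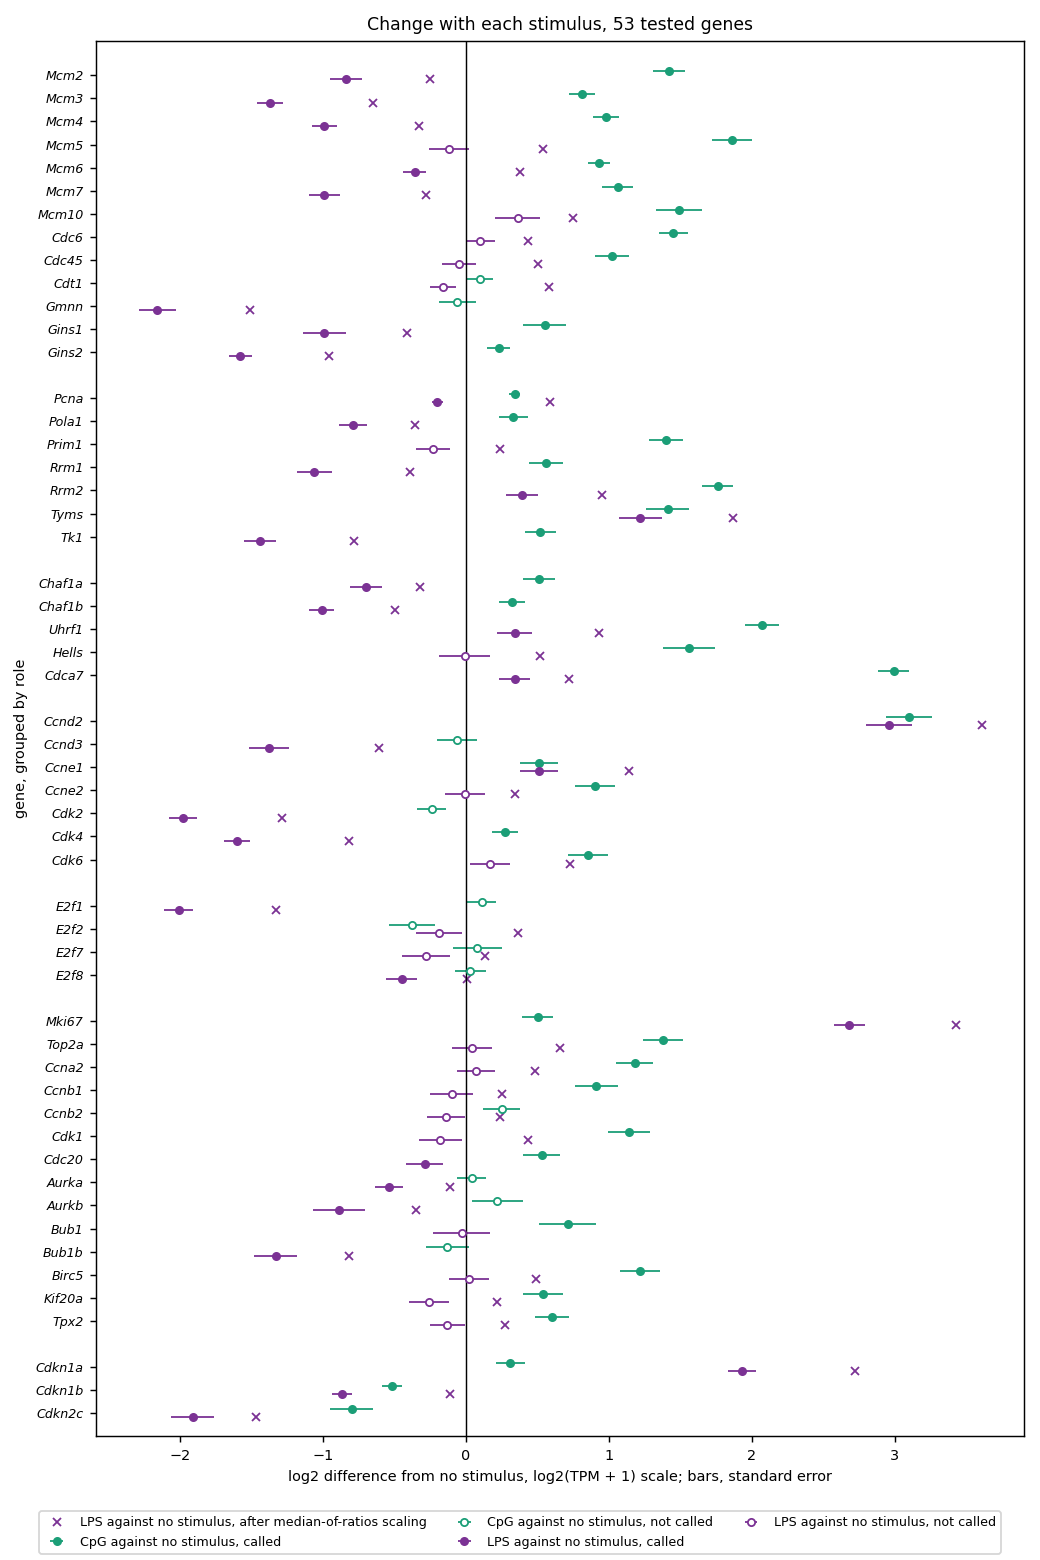
Log2 difference from no stimulus for the 53 tested genes (rows, grouped by role), with its standard error, for CpG (green) and LPS (purple); filled points passed the test, open points did not, and crosses give LPS after median-of-ratios scaling (51 genes). The CpG points lie right of 0 for 39 called genes, and the LPS points lie left of 0 for 25 called genes on deposited TPM, moving right by the scaling.

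Most of the origin licensing and helicase genes rose with CpG. Mcm2, Mcm3, Mcm4, Mcm5, Mcm6 and Mcm7, the subunits of the replicative helicase, were all among them. Of the 13 genes in this role 11 rose and none fell, where 15.2% of all genes tested rose and 19.9% fell. The median of the role was 0.98 on the log2 scale. Summed over the role, the level was 94.4 TPM in wild type untreated, 107 with lumican, 109 with biglycan, 110 in cells labelled Lum-/- with lumican and 106 in untreated cells labelled Bgn-/-. With CpG the 7 sums ran from 154 to 228 TPM, and with LPS from 44.6 to 58.4 TPM. The 3 ranges of these 19 libraries did not overlap on deposited TPM, and the sums were not scaled. With LPS, none of the 13 genes rose and 8 fell on deposited TPM (14.5% and 72.2% of all genes), with a median of -0.84. After median-of-ratios scaling 6 rose and 7 fell (39.2% and 39.5% of all genes), with a median of -0.25. The lower LPS sums therefore depend on the scale. The 2 shallow unstimulated libraries had 156 and 153 TPM, beside the lowest CpG library at 154 TPM.

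Mcm2 was at 4.44, 4.56 and 4.9 TPM in wild type without a stimulus (no protein, lumican, biglycan), at 4.47 TPM in cells labelled Lum-/- with lumican and at 3.86 TPM in untreated cells labelled Bgn-/-. With CpG it ranged from 9.92 to 16.5 TPM with a median of 12.7, and with LPS from 1.21 to 2.49 TPM with a median of 2.11. Every CpG library was above every unstimulated one, the shallow pair at 7.23 and 6.91 TPM included, and every LPS library was below them. The rise with CpG was 1.42 ± 0.11 (SE) on the log2 scale (limma adjusted p = 1.15e-06, higher in 5 of 5 sets). The fall with LPS was -0.84 ± 0.11 on deposited TPM (adjusted p = 5.42e-06) and -0.25 after scaling (adjusted p = 0.046), and it turned to 0.04, not called, under quantile normalization.

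Mcm5 had the largest rise of this role with CpG. It was at 3.37, 5.59 and 6.28 TPM in unstimulated wild type, at 4.83 TPM in cells labelled Lum-/- with lumican and at 5.24 TPM in untreated cells labelled Bgn-/-. With CpG it ranged from 15.2 to 24.5 TPM with a median of 20.5, above all 7 unstimulated libraries, of which the highest was a shallow one at 9.64 TPM. The difference was 1.86 ± 0.14 on the log2 scale (limma adjusted p = 5.26e-07, higher in 5 of 5 sets). With LPS it was at 2.87 to 5.7 TPM, which overlapped the unstimulated libraries. That difference was -0.12 ± 0.14 on deposited TPM (limma adjusted p = 0.406) and 0.54 after scaling (adjusted p = 0.00192).

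Mcm6 ran from 12.7 to 16.8 TPM without a stimulus in the 5 fitted libraries, from 10.3 to 12.7 TPM with LPS and from 23.1 to 35.5 TPM with CpG, with the shallow libraries at 19.3 and 23.2 TPM. It rose with CpG by 0.93 ± 0.08 on the log2 scale, and with LPS it was -0.36 ± 0.08 on deposited TPM and 0.38 after scaling, a change of direction. The other genes of this role that rose with CpG include Cdc6, which loads the helicase (1.45 ± 0.1), Mcm10 (1.49 ± 0.16) and Cdc45, which joins the active helicase (1.02 ± 0.12), all with limma adjusted p of at most 2.24e-05. In the opposite direction under LPS, Gins2 fell by 1.58 ± 0.08 on deposited TPM and was -0.96 after scaling, both called. Gins2 is a subunit of GINS, a part of the active helicase. Its call with CpG was lost in 10 of 19 fits that left out 1 library. With all 21 libraries its difference with CpG was 0.12 (limma adjusted p = 0.454).

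The licensing factor Cdt1 and its inhibitor geminin (Gmnn) did not rise with CpG. Gmnn was at 14.1, 14.7 and 13.8 TPM in unstimulated wild type, 18.5 TPM in cells labelled Lum-/- with lumican and 12.3 TPM in untreated cells labelled Bgn-/-. With CpG it was at 10.3 to 16.7 TPM (median 13.8), and with LPS at 1.41 to 3.3 TPM (median 2.77). The CpG libraries overlapped the unstimulated ones and the LPS libraries lay below all of them. The fall with LPS was -2.16 ± 0.13 on deposited TPM (limma adjusted p = 1.1e-09, lower in 5 of 5 sets) and -1.51 after scaling, the largest in the role on both scales. Cdt1 with LPS was -0.16 ± 0.09 on deposited TPM (adjusted p = 0.111) and 0.58 after scaling (adjusted p = 9.07e-05), so on that scale the licensing factor and its inhibitor moved in opposite directions.

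The genes of DNA synthesis and nucleotide supply all rose with CpG (7 of 7, from 0.33 to 1.76 on the log2 scale), beside 15.2% of all genes tested. Rrm2, the regulated subunit of ribonucleotide reductase, which makes deoxynucleotides, was at 1.06, 2.38 and 1.95 TPM in unstimulated wild type, 1.56 TPM in cells labelled Lum-/- with lumican and 2.31 TPM in untreated cells labelled Bgn-/-. With CpG it ranged from 5.75 to 9.65 TPM with a median of 9.0, above every unstimulated library. Within the CpG libraries the lowest values were the 2 labelled Lum-/-, at 6.05 and 5.75 TPM, and the others were at 9.0 to 9.65 TPM. The rise was 1.76 ± 0.11 (limma adjusted p = 1.28e-07). With LPS, Rrm2 was at 1.53 to 3.44 TPM, which overlapped the unstimulated libraries, and was called higher by 0.39 ± 0.11 on deposited TPM and 0.95 after scaling.

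Tyms, the thymidylate synthase gene, rose with both stimuli. It was at 1.93 to 3.83 TPM in the 5 fitted unstimulated libraries, 5.16 to 9.84 TPM with LPS and 4.65 to 11.5 TPM with CpG, and neither stimulated group overlapped the fitted unstimulated libraries. The rises were 1.22 ± 0.15 with LPS on deposited TPM (1.87 after scaling) and 1.41 ± 0.15 with CpG. LPS against CpG was -0.19 ± 0.13 on deposited TPM (limma adjusted p = 0.188) and 0.5 after scaling (adjusted p = 0.00206). Tk1 and Rrm1, the thymidine kinase and the large reductase subunit, parted from Tyms and Rrm2 under LPS. Their differences were -1.44 ± 0.11 and -1.06 ± 0.12 on deposited TPM and were -0.78 and -0.39 after scaling, all called, while with CpG they rose by 0.52 and 0.56.

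Pcna, the sliding clamp of the polymerases, was the most abundant of the 37 replication and G1/S genes at a mean of 165 TPM over the 19 libraries. Without a stimulus it was at 148, 155 and 156 TPM in wild type, 150 TPM in cells labelled Lum-/- with lumican and 178 TPM in untreated cells labelled Bgn-/-. With CpG it was at 177 to 226 TPM and with LPS at 115 to 152 TPM, and the shallow libraries, at 198 and 183 TPM, lay within the CpG range. The change with CpG was small and regular at 0.34 ± 0.04 (limma adjusted p = 5.6e-05, higher in 5 of 5 sets). With LPS it was -0.2 ± 0.04 on deposited TPM and 0.59 after scaling, so its direction under LPS is set by the scale. The primase gene Prim1 rose with CpG by 1.4 ± 0.12 and the polymerase alpha gene Pola1 by 0.33 ± 0.1. The Pola1 call was lost without untreated or CpG-treated wild type, untreated or CpG-treated Bgn-/- (no protein), or wild type with biglycan, with adjusted p up to 0.0702, and with all 21 libraries (0.16, adjusted p = 0.333).

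The 5 chromatin genes all rose with CpG (median 1.56), beside 15.2% of all genes tested. Cdca7, an E2F and Myc target that works with the remodeller Hells in DNA methylation, was at 0.667, 0.488 and 0.709 TPM in unstimulated wild type, 0.743 TPM in cells labelled Lum-/- with lumican and 0.668 TPM in untreated cells labelled Bgn-/-. With CpG it ranged from 9.74 to 14.9 TPM with a median of 11.4, and with LPS from 0.569 to 1.54 TPM with a median of 1.07. Each of the 7 CpG libraries was above the highest of the other 14. The rise with CpG was 2.99 ± 0.11 (limma adjusted p = 1.06e-09, higher in 5 of 5 sets), and LPS against CpG was -2.65 ± 0.1 on deposited TPM and -2.13 after scaling (lower in 7 of 7 pairs), the largest difference of any member in that comparison on deposited TPM. With LPS against no stimulus Cdca7 was higher by 0.34 ± 0.11 on deposited TPM (adjusted p = 0.0104) and 0.72 after scaling.

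Uhrf1, which recruits maintenance DNA methylation to replicating chromatin, was at 1.71, 2.43 and 2.63 TPM in unstimulated wild type, 2.22 TPM in cells labelled Lum-/- with lumican and 2.0 TPM in untreated cells labelled Bgn-/-. With CpG it ranged from 8.31 to 14.9 TPM (median 12.7) and with LPS from 1.54 to 3.88 TPM (median 3.17). The rise with CpG was 2.07 ± 0.12 (limma adjusted p = 6.31e-08), with no overlap between the libraries. The rise with LPS was 0.34 ± 0.12 on deposited TPM (adjusted p = 0.0152) and 0.93 after scaling, and with all 21 libraries it was 0.04 on deposited TPM (adjusted p = 0.817). It also missed the threshold without the untreated library of wild type or of the Bgn-/- label (adjusted p up to 0.0566). Hells rose with CpG by 1.56 ± 0.18. Chaf1a and Chaf1b, subunits of the histone chaperone CAF-1, rose with CpG by 0.51 and 0.32 (Chaf1b 0.12 with all 21 libraries, adjusted p = 0.558) and fell with LPS (-0.7 and -1.01 on deposited TPM, -0.32 and -0.5 after scaling, both called).

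**Figure D3:**
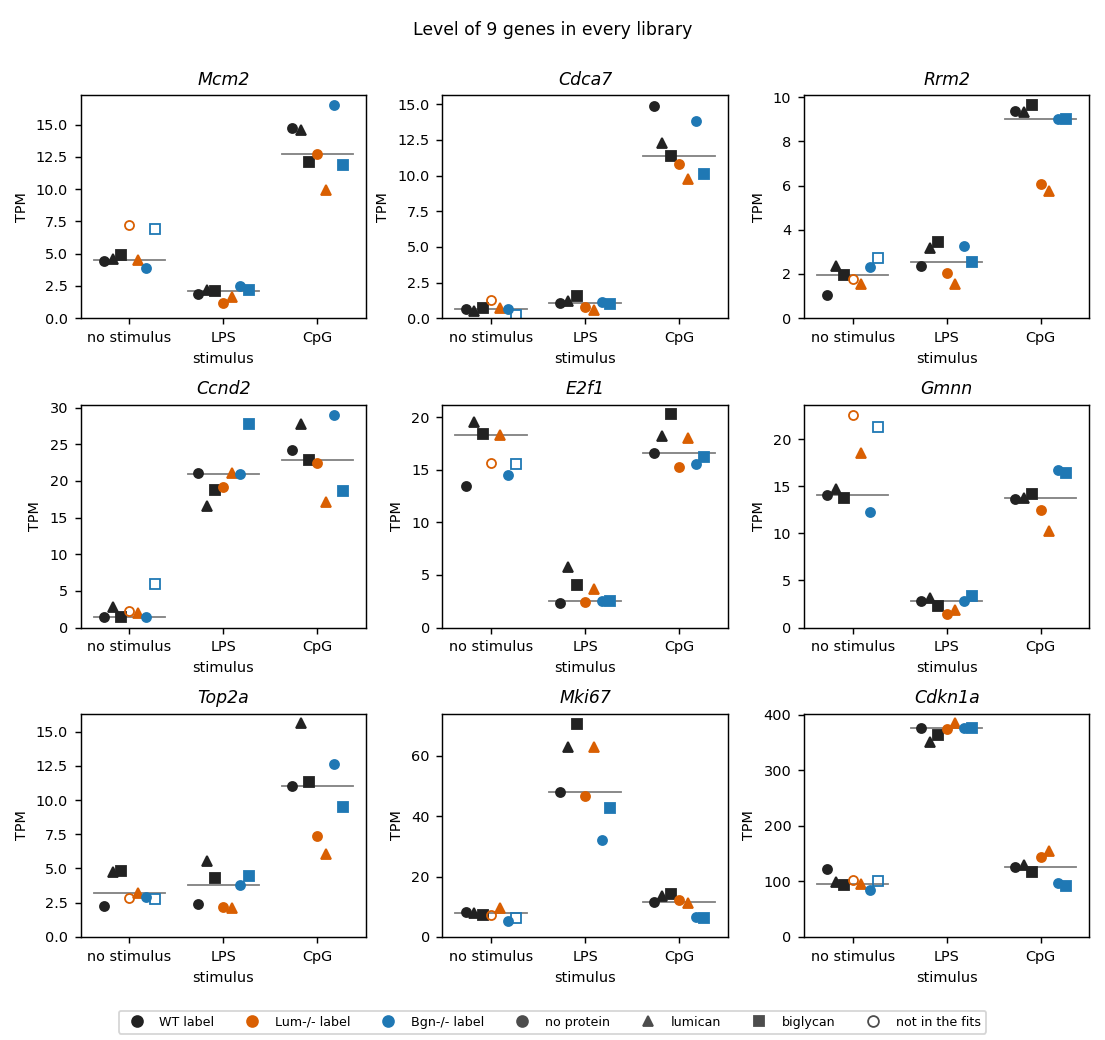
TPM of 9 genes (panels) in every library, by stimulus; colours give the genotype label, shapes the protein, open symbols the 2 libraries left out of the tests and grey lines the median of the fitted libraries. Mcm2, Cdca7, Rrm2 and Top2a are high with CpG, Mki67 and Cdkn1a with LPS and Ccnd2 with both, while E2f1 and Gmnn are low with LPS.

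Among the G1 cyclins and kinases, Ccnd2 (cyclin D2) rose strongly with both stimuli. It was at 1.37, 2.82 and 1.5 TPM in unstimulated wild type, 1.96 TPM in cells labelled Lum-/- with lumican and 1.44 TPM in untreated cells labelled Bgn-/-. With LPS it ranged from 16.6 to 27.7 TPM (median 20.9) and with CpG from 17.1 to 29.0 TPM (median 22.9). Every stimulated library was above every unstimulated one, of which a shallow library was the highest at 5.98 TPM. The rises were 2.96 ± 0.16 with LPS on deposited TPM (3.61 after scaling, limma adjusted p = 3.59e-10 and 1.39e-10) and 3.1 ± 0.16 with CpG (adjusted p = 2.54e-08), the largest of any member in both comparisons. LPS against CpG was -0.14 ± 0.14 on deposited TPM (adjusted p = 0.351) and 0.59 after scaling (adjusted p = 0.0018).

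Its relative Ccnd3 (cyclin D3) went another way. It was at 47.0, 27.6 and 32.8 TPM in unstimulated wild type, 42.7 TPM in cells labelled Lum-/- with lumican and 36.4 TPM in untreated cells labelled Bgn-/-. With CpG it was at 33.0 to 46.9 TPM (median 35.6), inside the unstimulated range, and with LPS at 9.57 to 20.5 TPM (median 13.2), below it. The fall with LPS was -1.38 ± 0.14 on deposited TPM and -0.61 after scaling (limma adjusted p = 3.38e-07 and 0.00235). Cyclin D2 at a median of 20.9 TPM was above cyclin D3 at 13.2 TPM in the LPS libraries, in the opposite order to the unstimulated ones, as medians of levels per transcript length. Ccnd1 (cyclin D1) stayed low, at 0.286 to 1.01 TPM in the fitted unstimulated libraries, 0.194 to 0.51 TPM with LPS and 0.898 to 1.72 TPM with CpG, and was not tested.

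Cdk4, the kinase partner of the D cyclins, was at 102 to 115 TPM without a stimulus in the 5 fitted libraries, 111 to 150 TPM with CpG and 31.3 to 45.2 TPM with LPS. The shallow libraries were at 140 and 171 TPM. It fell with LPS (-1.6 ± 0.09 on deposited TPM and -0.82 after scaling, both called). It rose with CpG by 0.27 ± 0.09 (limma adjusted p = 0.0267), a call that was lost with all 21 libraries (0.09, adjusted p = 0.544) and in 5 of 19 fits that left out 1 library, with adjusted p up to 0.0808 (without untreated wild type, wild type with lumican, biglycan or CpG alone, or Bgn-/- with CpG). Cdk6 was at 1.3 to 2.5 TPM without a stimulus, 2.1 to 2.74 TPM with LPS and 3.14 to 5.61 TPM with CpG, and rose with CpG by 0.85 ± 0.14. With LPS it differed by 0.17 ± 0.14 on deposited TPM (adjusted p = 0.255) and by 0.73 after scaling (called). Cdk2, the kinase of S-phase entry, fell with LPS (-1.98 ± 0.1 on deposited TPM and -1.29 after scaling), and was -0.24 ± 0.1 with CpG (adjusted p = 0.0831).

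Ccne1 (cyclin E1, the partner of Cdk2) was at 2.4 to 3.79 TPM without a stimulus in the fitted libraries, 3.27 to 6.66 TPM with LPS and 3.74 to 5.15 TPM with CpG. The groups overlapped, and the rise was 0.51 ± 0.13 with each stimulus on deposited TPM (limma adjusted p = 0.00241 with LPS and 0.00921 with CpG; 1.14 with LPS after scaling). Ccne2, the second E-type cyclin, rose with CpG (0.9 ± 0.14), and LPS against CpG was -0.91 ± 0.12 on deposited TPM and -0.5 after scaling, both called.

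The 4 E2F factors did not rise with CpG (0 of 4 called, differences from -0.38 to 0.11, and 1 of the 4 at an unadjusted p under 0.05, as were 45.5% of all genes). E2f1, an activator of replication genes, was at 13.5, 19.6 and 18.4 TPM in unstimulated wild type, 18.3 TPM in cells labelled Lum-/- with lumican and 14.5 TPM in untreated cells labelled Bgn-/-. With CpG it was at 15.3 to 20.3 TPM (median 16.6), within the unstimulated range apart from its highest library. With LPS it was at 2.32 to 5.72 TPM (median 2.52), below every other library. The fall with LPS was -2.01 ± 0.1 on deposited TPM (limma adjusted p = 1.33e-10, lower in 5 of 5 sets) and -1.33 after scaling. E2f8, a repressor of the family, was -0.45 ± 0.11 with LPS on deposited TPM and 0.01 after scaling.

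Of the 18 mitotic genes 14 were tested. With CpG 10 of these rose and none fell (median 0.57), where 15.2% of all genes tested rose and 19.9% fell. Top2a, the topoisomerase that untangles chromosomes, was at 2.24, 4.72 and 4.79 TPM in unstimulated wild type, 3.22 TPM in cells labelled Lum-/- with lumican and 2.89 TPM in untreated cells labelled Bgn-/-. With CpG it ranged from 6.03 to 15.6 TPM (median 11.0), above every unstimulated library, and with LPS from 2.13 to 5.57 TPM (median 3.79). The rise with CpG was 1.38 ± 0.14 (limma adjusted p = 9.22e-06), the largest of the role. LPS differed from no stimulus by 0.04 ± 0.14 on deposited TPM (adjusted p = 0.794) and by 0.66 after scaling (adjusted p = 0.000531).

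Cdk1, the kinase that drives mitosis, was at 2.3 to 4.26 TPM in the fitted unstimulated libraries, 2.04 to 4.13 TPM with LPS and 5.06 to 10.7 TPM with CpG. It rose with CpG by 1.14 ± 0.15 (limma adjusted p = 8.7e-05). Both shallow libraries, at 5.31 and 5.23 TPM, reached into the CpG range. Its partner Ccnb1 (cyclin B1) was low throughout, at 0.438 to 1.18 TPM without a stimulus, 0.529 to 1.08 TPM with LPS and 1.72 to 3.83 TPM with CpG, and rose with CpG by 0.91 ± 0.15. Ccna2 (cyclin A2) and the survivin gene Birc5 rose by 1.18 and 1.22. Aurka, Aurkb, Bub1b and Ccnb2, genes of the spindle, its checkpoint and mitotic entry, did not pass the test with CpG (-0.13 to 0.25). Plk1, Kif11, Cenpe and Cenpf had means under 1 TPM and were not tested.

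Mki67, the gene of the proliferation marker Ki-67, parted from the other tested mitotic members under LPS on deposited TPM. It was at 8.17, 8.01 and 7.4 TPM in unstimulated wild type, 9.59 TPM in cells labelled Lum-/- with lumican and 5.2 TPM in untreated cells labelled Bgn-/-. With LPS it ranged from 32.0 to 70.5 TPM (median 47.9) and with CpG from 6.13 to 14.2 TPM (median 11.5). Every LPS library was above every library of the other 2 conditions. The rise with LPS was 2.68 ± 0.11 on deposited TPM and 3.43 after scaling (limma adjusted p = 2.57e-11 and 3.83e-12), and with CpG it was 0.5 ± 0.11 (adjusted p = 0.00341). Among the other 13 tested mitotic genes, none rose and 4 fell with LPS on deposited TPM (-1.33 to 0.07), where 72.2% of all genes fell. Of these 4, Cdc20 lost its call in 10 of 19 fits that left out 1 library. After scaling, 4 of 11 rose and 1 fell (39.2% and 39.5% of all genes). LPS against CpG was 2.18 ± 0.1 for Mki67 (higher in 7 of 7 pairs, on both scales), while all 13 other tested mitotic genes were lower with LPS on deposited TPM (75.7% of all genes), and 9 of 11 after scaling (40.3%). No single test compared Mki67 with the other genes.

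The CDK inhibitors did not move together. Cdkn1a (p21) was at 122, 98.1 and 93.4 TPM in unstimulated wild type, 94.6 TPM in cells labelled Lum-/- with lumican and 84.6 TPM in untreated cells labelled Bgn-/-. With LPS it was at 351 to 386 TPM (median 376), above every other library, and with CpG at 90.8 to 154 TPM (median 125). The rise with LPS was 1.93 ± 0.1 on deposited TPM and 2.72 after scaling (limma adjusted p = 1.9e-10 and 3.73e-11), and with CpG 0.31 ± 0.1 (adjusted p = 0.0258). The CpG call was lost in 5 of 19 fits that left out 1 library, with adjusted p up to 0.091 (without Lum-/- or wild type with lumican and CpG, Lum-/- with lumican, untreated Bgn-/-, or wild type with biglycan). Cdkn2c (p18, an inhibitor of Cdk4 and Cdk6) was at 4.56 to 5.1 TPM without a stimulus in the fitted libraries, 1.47 to 3.09 TPM with CpG and 0.102 to 0.901 TPM with LPS. The 3 ranges did not overlap, and the falls were -0.8 ± 0.15 with CpG and -1.91 ± 0.15 with LPS on deposited TPM (-1.47 after scaling). Cdkn1b (p27), at 22.0 to 28.5 TPM unstimulated, 15.3 to 19.6 TPM with CpG and 11.5 to 15.4 TPM with LPS, fell with CpG (-0.52 ± 0.07), and was -0.87 ± 0.07 with LPS on deposited TPM and -0.11 after scaling (not called).

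Other genes of these pathways were counted from 3 lists (128 genes, 109 tested). Of 43 tested further replication genes 23 rose and none fell with CpG, and of 38 tested further mitosis genes 18 rose and 3 fell, against 15.2% and 19.9% of all genes. With LPS, 4 of the replication genes rose and 31 fell on deposited TPM, and 10 of 42 rose and 19 fell after scaling. Of the mitosis genes 5 rose and 25 fell on deposited TPM, and 10 of 36 rose and 9 fell after scaling. Of all genes 14.5% rose and 72.2% fell on deposited TPM, and 39.2% and 39.5% after scaling. None of these LPS shares stood far above the background. Myc, a driver of growth and S-phase entry, ranged from 4.55 to 7.3 TPM without a stimulus, from 19.1 to 29.1 TPM with CpG and from 3.13 to 7.98 TPM with LPS. It rose with CpG by 2.02 ± 0.1 (limma adjusted p = 2.09e-08), and with LPS it was -0.07 ± 0.1 on deposited TPM and 0.6 after scaling. Mybl2 (B-Myb) rose with CpG by 1.64 ± 0.2. Foxm1 did not pass the test with CpG (0.28 ± 0.14, adjusted p = 0.12).

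Rb1, the retinoblastoma gene, was at 25.1 to 32.1 TPM without a stimulus, 17.2 to 26.1 TPM with CpG and 7.45 to 11.7 TPM with LPS. It fell with CpG (-0.51 ± 0.09) and with LPS (-1.73 ± 0.09 on deposited TPM, limma adjusted p = 3.36e-10, and -0.99 after scaling, adjusted p = 2.31e-08). The other large rises with CpG were Dut (1.91), which clears dUTP, and the exonuclease gene Exo1 (1.77). Cenpa, Cdc25b and Cdkn1c fell most with CpG (-0.8, -0.72 and -0.68). The largest rises with LPS were Pola2 (1.63), Kif23 (1.21) and Cks2 (0.92), and the largest falls Cdc25b (-2.72), Rpa1 (-2.09) and Rbl2 (-2), each in that direction after scaling too. LPS against CpG was largest upward for Pttg1 (0.97), Kif23 (0.81) and Pola2 (0.78), and downward for Espl1 (-2.28), Tipin (-2.19) and Dut (-2.12).

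Markers of B cells, which answer CpG and LPS by dividing, were present in every library. The summed TPM of 12 B cell markers was 747 to 942 in the fitted unstimulated libraries, 525 to 733 with LPS and 750 to 1060 with CpG, and none of the 12 was at 0 in all libraries of a stimulus. Of the 11 tested, 4 rose and 6 fell with CpG, where 15.2% of all genes tested rose and 19.9% fell. Ms4a1 (CD20) fell by 0.81. Summed plasma cell markers were 70.5 to 109 TPM unstimulated and 111 to 129 TPM with CpG (4 of 5 tested rose). Of 9 macrophage markers none rose and 7 fell with CpG on deposited TPM. After scaling none rose and 6 fell, beside 17.4% and 17.5% of all genes. With LPS none rose and 9 fell on deposited TPM, where 72.2% of all genes fell. After scaling 2 rose and 5 fell, beside 39.2% and 39.5% of all genes. The part of B cells in the rise of the replication genes was not tested.

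Between genotype labels fewer members were called than between stimuli. In cells labelled Lum-/-, no member was higher than in wild type and 11 of 53 were lower, against 3.05% and 7.52% of all genes (limma, 5 matched treatments). They were the replication and S-phase genes Mcm2, Mcm5, Gins2, Prim1, Rrm1, Rrm2, Chaf1b and Uhrf1 and the later genes Top2a, Ccna2 and Cdk1. Of the 53 tested members, 27 had an unadjusted p under 0.05, as did 26.6% of all genes.

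Top2a had the largest difference, -0.69 ± 0.14 on the log2 scale (adjusted p = 0.0115, -0.65 after scaling), and was lower in 5 of 5 matched treatments. With CpG it was at 7.34 and 6.03 TPM in the libraries labelled Lum-/- (no protein, lumican) and at 11.0 and 15.6 TPM in the matched wild-type libraries. With LPS it was at 2.2 and 2.13 TPM against 2.41 and 5.57 TPM, and with lumican alone at 3.22 against 4.72 TPM. The differences were -0.55 ± 0.12 for Cdk1, -0.45 ± 0.1 for Prim1 and -0.43 ± 0.1 for Uhrf1, each lower in 5 of 5 treatments, and -0.57 ± 0.13 for Ccna2, lower in 4 of 5.

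These calls rest on few libraries. With all 21 libraries 0 members were called, and in the shallow untreated library labelled Lum-/- all 11 genes were above the wild-type untreated library (by 0.23 to 1.28). With no filter on low genes 3 were called. Leaving out 1 library gave 6 calls without LPS and 3 without CpG of the label, 2 without lumican with LPS or with CpG in either genotype, 7 without wild type with LPS, 6 without wild type with CpG, and 7 without biglycan with CpG in either genotype. Markers moved with the label too, where 3.05% of all genes were higher and 7.52% lower. Of 11 tested B cell markers 6 were lower and none higher, with sums of 750 and 819 TPM in the CpG libraries labelled Lum-/- against 904 to 1020 TPM in wild type. Of 7 mast cell markers 5 were lower, with sums of 15.0 and 16.1 TPM in the CpG libraries of the label against 107 to 146 TPM in wild type. With LPS the mast cell sums were closer, at 168 and 174 TPM against 209 to 221 TPM. In the label with lumican, however, the sum was 11.9 TPM without a stimulus and 174 TPM with LPS. Only 1 of the 7 tested markers was called higher with LPS than with no stimulus (14.5% of all genes). An LPS sum therefore need not reflect all of these markers. The part of B cells and mast cells in the difference was not tested.

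In cells labelled Bgn-/-, 1 member was lower and none higher than in wild type, against 0.668% and 0.36% of all genes. The 1 gene was Mki67, at -0.72 ± 0.08 on the log2 scale (limma adjusted p = 0.00124, -0.73 after scaling), lower in 5 of 5 matched treatments. With LPS it was at 32.0 and 42.8 TPM (no protein, biglycan) against 47.9 and 70.5 TPM in wild type, with CpG at 6.74 and 6.13 against 11.5 and 14.2 TPM, and untreated at 5.2 against 8.17 TPM. Each of these 5 differences was between -1.09 and -0.56. The shallow biglycan-alone library, at 6.17 TPM against 7.4 TPM, had the direction of the others, and the call was kept with all 21 libraries (-0.63, adjusted p = 0.00783). The other 13 tested mitotic genes ranged from -0.21 to 0.23, with none called. Without the untreated wild-type library the difference was -0.76 (adjusted p = 0.0014). Of 7 tested mast cell markers 4 were lower in this label, and none of 11 B cell markers was called. The mast cell sums with CpG were 6.11 and 7.18 TPM against 107 to 146 TPM in wild type. With LPS they were 141 and 157 TPM against 209 to 221 TPM. Without treatment the order was the reverse, at 10.0 TPM against 6.06 TPM in wild type. Because 1 of the 7 markers was called higher with LPS than with no stimulus (14.5% of all genes), the LPS sums need not reflect all of them. The part of mast cells was not tested.

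**Figure D4:**
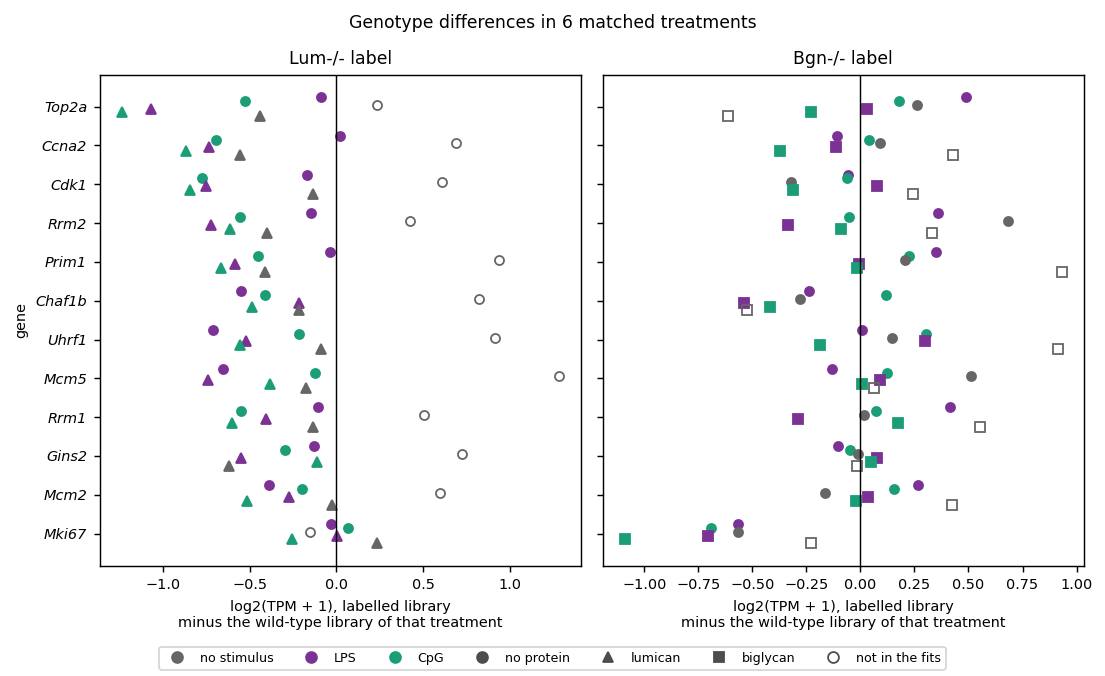
Log2(TPM + 1) in each library labelled Lum-/- (left) or Bgn-/- (right) minus the wild-type library of that treatment, for the 11 genes lower in the Lum-/- label and Mki67; colours give the stimulus, shapes the protein, and open symbols the libraries left out of the tests. Mki67 lies left of 0 in 5 of 5 fitted treatments in the Bgn-/- label, and Top2a in 5 of 5 in the Lum-/- label, whose open symbols lie right of 0 for all 11 genes.

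Whether the difference between LPS and CpG depends on the genotype label was tested directly. A fit with genotype-by-stimulus terms called 0 of 53 members for each label, and 0% of all genes, at 2 members (Lum-/-) and 4 members (Bgn-/-) with an unadjusted limma p under 0.05, beside 5.23% and 8.12% of all genes. For Mki67 in the Bgn-/- label, this difference of differences was 0.25 ± 0.23 (adjusted p = 0.867).

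Added lumican or biglycan was compared with the stimulus alone in 2 matched pairs each. With LPS, 1 of 53 members was called with lumican, E2f1, against 1.78% of all genes higher and 0.497% lower. E2f1 was at 5.72 TPM with lumican and LPS against 2.32 TPM with LPS alone in wild type, and at 3.64 against 2.39 TPM in cells labelled Lum-/-. The difference was 0.69 ± 0.15 on the log2 scale (limma adjusted p = 0.0443), higher in 2 of 2 pairs. After scaling it was 0.62 (adjusted p = 0.063), without the wild-type library given lumican and LPS 0.46 (adjusted p = 0.414), and with all 21 libraries 0.67 (adjusted p = 0.0838). When 1 library was left out, the E2f1 call was kept in 5 of 19 fits (without the untreated library of wild type or the Bgn-/- label, biglycan with LPS in either genotype, or wild type with biglycan) and lost in the other 14. Ccnd3 was -0.67 ± 0.16 on deposited TPM (adjusted p = 0.0522) and -0.82 after scaling (adjusted p = 0.0319).

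With LPS and biglycan, 0 of the 53 members were called, against 0.18% of all genes higher and 0.0514% lower, with 6 members at an unadjusted limma p under 0.05, beside 16.8% of all genes. The largest of these was Mki67, at 70.5 against 47.9 TPM in wild type and 42.8 against 32.0 TPM in cells labelled Bgn-/- (0.51 ± 0.13, adjusted p = 0.119). With CpG, limma called 0 members and 0% of all genes for either protein, at 1 member with lumican and 2 members with biglycan under an unadjusted p of 0.05, beside 4.14% and 6.53% of all genes. Over the members, the standard error in these protein comparisons was 0.07 to 0.29 on the log2 scale, with a median of 0.17.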

How the data were processed

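RNA sequencing of 21 macrophage libraries was used. The authors deposited TPM per transcript, which sum to 1000000 in each library. Tools named in the submitters' processing notes are kallisto 0.44.0 and bcl2fastq 1.8.4, and the build is GRCm38. The kit was stranded, per the labels' protocols. TPM was summed per gene name. Of 89562 transcripts 82788 had a gene name, 5424 more were matched by ID to GENCODE, and 1350 were left out. Coordinates are 1-based. Counts were not used here, and read depth was estimated from the spacing of low values over 3691 coding genes with 1 transcript, with an assumed fragment length of 200 bases. Because TPM is a share, an abundant induced transcript lowers all others. The counts over all members in each stimulus comparison, and most single-gene differences with LPS, are therefore given also after median-of-ratios scaling. Single-gene differences of CpG from no stimulus, sums and overlaps between libraries are on deposited TPM.

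After addition of 1 TPM and a log2 transform, limma 3.58.1 (R 4.3.3, eBayes with a trend) was run on the 11673 genes, 53 of them members, whose mean over 19 libraries reached 1 TPM. Tests were two-sided, and a call is a p under 0.05 after Benjamini-Hochberg adjustment across those genes. Fold changes on that scale understate those of low genes. Stimuli were compared within 7 sets matched for genotype and protein (10 residual degrees of freedom), genotypes and proteins in a fit of genotype and 9 treatments (8), and responses with genotype-by-stimulus terms (6). Errors (±) are standard errors of those fits. The fits were checked on simulated data. Sums and figures were made with pandas 2.3.3, matplotlib 3.10.9 and numpy 2.4.6 under Python 3.11.15.

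The members, roles, pathway and marker lists and tests were chosen with earlier results of these data known. Every member may be named; values by library are for 22 listed members and for the largest called change of a role under a stimulus. Of the pathway lists, Myc, Foxm1, Mybl2, Rb1 and the 3 largest called changes each way were named. Genotype and protein comparisons name called members, and Ccnd3 and Mki67 in the protein comparisons were chosen after their values were seen. 2 alternatives that join scaling with another choice of libraries were chosen after the data were seen. Promoter windows are from RefSeq.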

Additional observations from a re-analysis of the deposited data

Results flagged for a closer look

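Within each set of libraries of 1 stimulus, 22 genes were checked for a single library far from the others, 66 sets in all, and 4 were found. Chance gives about 1 in 20. Pcna was at 178 TPM in untreated cells labelled Bgn-/-, where the other 4 fitted unstimulated libraries were at 148 to 156 TPM. Ccnd2 was at 27.7 TPM in cells labelled Bgn-/- with biglycan and LPS, against 16.6 to 21.1 TPM in the other 6 LPS libraries. Ccnd3 was at 46.9 TPM in cells labelled Bgn-/- with biglycan and CpG, against 33.0 to 38.4 TPM in the other 6 CpG libraries. Cdk1 was at 4.13 TPM in wild-type cells with lumican and LPS, against 2.04 to 2.93 TPM in the other 6 LPS libraries.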

How the results depend on the processing

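No paired analysis was possible because the labels carry no replicate numbers, beyond the matching by genotype and protein that the stimulus fits already hold. Values below count called members. With LPS against no stimulus, the 8 higher became 5 at a mean of at least 5 TPM (fewer genes tested), 23 with median-of-ratios scaling, 28 with quantile normalization, 20 and 21 with scaling of all 21 or of 18 libraries, and 4 without wild type. The 25 lower became 15 at 5 TPM and 12 with quantile normalization. With CpG against no stimulus, the 39 higher became 18 at 5 TPM and 22 without wild type, and the 2 lower became 1 in each. With LPS against CpG, the 2 higher became 9 with scaling (also of 21 or 18 libraries) and 10 with quantile normalization, and the 47 lower became 20 at 5 TPM. The 11 lower in the Lum-/- label became 7 at 5 TPM, 3 with no filter, 0 with all 21 libraries and 1 with all 21 scaled. For lumican with LPS the 1 called (E2f1, higher) became 2, of which 1 was higher and 1 lower, with a pseudocount of 0.1, at 5 TPM, with robust eBayes and with 18 libraries, and 2, both lower, with scaling of 19 or 18 libraries. It became 0 with a pseudocount of 5, no filter, quantile normalization, 1 transcript per gene (the most abundant) and all 21 libraries, scaled or not. Biglycan with LPS went from 0 to 1 with 18 libraries scaled. The cause was not tested. Additive genotype and protein terms, fits of only the compared stimuli, and leaving out all libraries labelled Lum-/- or Bgn-/- moved no stimulus count by over 1.5 times.

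Leaving out 1 library in turn gave, with LPS, 7 to 9 higher and 24 to 28 lower, with CpG 33 to 39 higher and 2 to 3 lower, for LPS against CpG 2 to 3 higher and 45 to 47 lower, 2 to 14 for the Lum-/- label, 1 for the Bgn-/- label, 0 to 2 for lumican with LPS, and 0 for the other 3 protein comparisons and both interaction tests.

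Some called genes changed direction. For LPS against no stimulus with quantile normalization, Aurka was 0.13, Cdc20 0.21, E2f8 0.25, Mcm2 0.04 and Mcm6 0.44. With scaling of 19, 21 and 18 libraries E2f8 was 0.01, 0.06 and 0.02, Mcm6 0.38, 0.27 and 0.29, and Pcna 0.59, 0.55 and 0.55. With the most abundant transcript, Cdk4 was -0.05 and Gins2 -0.18 for CpG against no stimulus. For LPS against CpG with quantile normalization, Aurka was 0.1, Ccnb2 0.27, Cdk6 0.18, Cdkn1b 0.37, Cdt1 0.52, E2f7 0.32 and E2f8 0.22. With scaling of 19, 21 and 18 libraries Cdkn1b was 0.37, 0.39 and 0.37, Cdt1 0.45, 0.47 and 0.45, E2f7 0.03, 0.04 and 0.03, and Pcna 0.22, 0.24 and 0.22, and Ccnb2 was 0.01 with 21. The estimated depth limits members near 1 TPM most, and no counts give their error.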
